A study of Mus musculus with 6 samples.

Results

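The 10 genes described here encode 4 Notch receptors (Notch1, Notch2, Notch3 and Notch4), 3 of their ligands (Dll4, Jag1 and Jag2) and 3 transcription factors that Notch signaling switches on (Hey1, Hey2 and Heyl). They were listed by symbol out of 18191 genes measured in the mouse aorta. The list used no measured value, but it was chosen with earlier results of these data known. All 10 passed the filter on low counts and were among the 13938 genes tested. RNA-sequencing was performed on whole aortas of male mice, with 3 libraries from wild type (WT) mice and 3 from heterozygous Npr1 knockout (Npr1+/-) mice, in which CRISPR-Cas9 disrupted 1 copy of the gene of the natriuretic peptide receptor. The deposited table names the Npr1+/- columns Knockdown. The age and strain of the mice are not given in the sources used here, nor is it said whether each library is 1 animal, so that p-values measure the spread between these libraries.

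Notch is a receptor that a ligand on a neighboring cell pulls on. The receptor is then cut at the membrane, and its inner part moves to the nucleus, where it joins the DNA-binding protein RBPJ and switches on Hes and Hey genes, which are themselves repressors. In arteries, Notch1, Notch4 and Dll4 are known from the endothelium, the cell layer facing the blood, and Notch3 and Heyl from smooth muscle, whose Notch receptors are engaged by Jag1.

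Heyl and Hey2 were the most abundant of the 10 genes, and Heyl had the clearest difference between the genotypes. Its level in Npr1+/- aortas was 56.7% of that in WT aortas. All 3 Npr1+/- libraries lay under the lowest WT library, as for 3.58% of all tested genes. Hey2 and Notch2 were lower in the Npr1+/- library of every replicate number, as 16.9% of all tested genes were. Notch1 and Notch4 were higher in every number, as 17.5% were. The genotype means of Notch2, Notch3, Notch4, Dll4, Jag1 and Hey1 differed by less than the spread (SD) between WT libraries. A gene was called where its adjusted p was under 0.05 and its log2 fold change reached 0.5 in either direction. The quasi-likelihood test of edgeR called 0 of the 10 genes, as it called 0% of all 13938 genes tested.

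The estimated counts summed to between 13510970 and 16664343 per library, and the 10 genes had between 123 and 3546 counts in a library. Npr1, the targeted gene, averaged 139 ± 23.1 FPKM (counts scaled by transcript length and library size) in WT and 104 ± 31.7 in Npr1+/- aortas (SD, n = 3), and the groups overlapped (log2 fold change -0.41, adjusted p = 0.999 by edgeR). Both libraries numbered 1 stood apart from the other 4. Their smooth muscle markers (8 genes, Acta2 and Myh11 among them) summed to 8618 FPKM in WT 1 and 5029 in Npr1+/- 1, against 13572 to 15152 elsewhere, and their brown fat markers (4 genes) to 3025 and 2767, against 412 to 847.6. Npr1+/- 1 also stood out by Th and Dbh, enzymes of sympathetic neurons, at 38.97 and 56.15 FPKM, while they were at 0 to 0.07 and 0 to 0.25 FPKM elsewhere. The 10 endothelial markers summed to between 178.9 and 273.1 FPKM in WT and between 325.2 and 454.1 in Npr1+/- aortas, without overlap. All 10 had a positive log2 fold change (median 0.62, 0 called). From edgeR, 5 had an unadjusted p under 0.05, where 2.96% of all tested genes did. In whole tissue, fewer cells of a type and less RNA per cell cannot be told apart.

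Levels were compared between genes by FPKM. Over all 6 libraries the mean was highest for Heyl at 32.6 ± 12.5 FPKM (SD, n = 6), which put it at rank 2461 of the 18191 genes, followed by Hey2 at 26.5 ± 9.48. The receptors Notch2 and Notch3, at 15.2 ± 4.54 and 11.9 ± 2.36, and the ligand Jag1, at 9.52 ± 1.302, came next. Notch1 (5.78 ± 1.54), Jag2 (5.07 ± 1.54), Notch4 (4.47 ± 1.68), Hey1 (4.33 ± 0.859) and Dll4 (3.96 ± 1.27, rank 9611) formed the low end. Of the 9 neighboring pairs in this order, Hey2 above Notch2 and Notch1 above Jag2 held in 6 of 6 libraries (exact two-sided sign-flip permutation test of log2 values, p = 0.03125, the smallest that 6 libraries allow, adjusted p = 0.141 over the 9 pairs). The other 7 pairs held in 3 to 5 libraries, and Notch4 against Hey1 was even, at 3 of 6 (exact p = 0.938). Heyl exceeded Notch2 by 1.64-fold to 2.77-fold, and Jag1 exceeded Dll4 by 1.42-fold to 4.51-fold, in 6 of 6 libraries each.

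**Figure D1:**
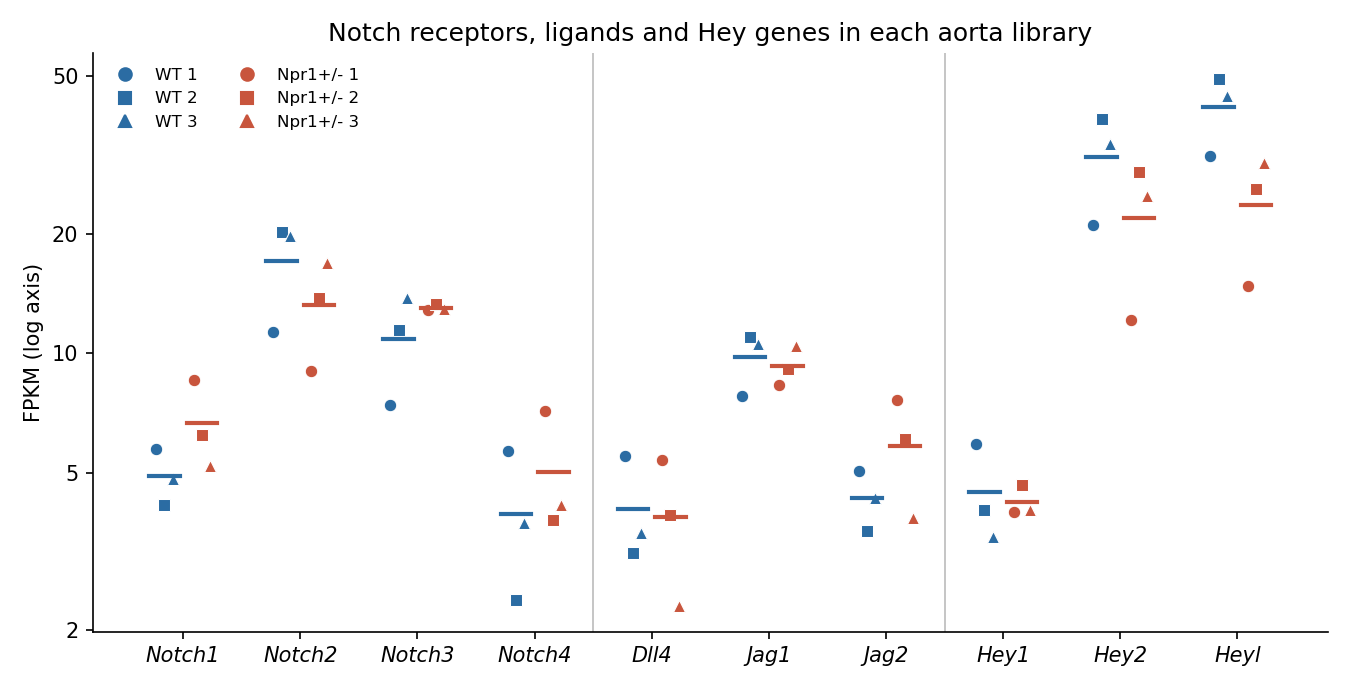
FPKM (log axis) of the 10 genes in each library, with WT in blue, Npr1+/- in red, the marker shape for the replicate number and a line at each genotype's mean (n = 3). Heyl is the only gene whose Npr1+/- libraries (14.75 to 30.17 FPKM) all lie under the WT libraries (31.35 to 48.94 FPKM). By counts scaled by library size, 3.58% of all tested genes lie so, Heyl among them.

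Heyl (NCBI gene 56198, chr4:123233556-123249875 of GRCm38, plus strand) encodes a basic helix-loop-helix repressor. It measured 31.35, 48.94 and 44.54 FPKM in WT 1 to 3 against 14.75, 25.83 and 30.17 in Npr1+/- 1 to 3, which is 41.6 ± 9.15 against 23.6 ± 7.95 (SD, n = 3). The groups did not overlap, by a margin of 31.35 to 30.17 (exact two-sided permutation test, p = 0.1, the smallest that 3 libraries against 3 allow). Of all tested genes, 3.58% were lower in Npr1+/- aortas without overlap, judged by CPM (counts scaled by library size), on which scale Heyl did not overlap either. In the quasi-likelihood test of edgeR, Heyl had a log2 fold change of -0.82 (standard error 0.29), an unadjusted p of 0.0279, and an adjusted p of 0.999. An unadjusted p under 0.05 in this direction was found for 1.08% of all tested genes. The log2 fold change stayed between -1.01 and -0.59 over the fits that each left out 1 library.

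Hey2 (NCBI gene 15214, chr10:30832359-30842801 of GRCm38, minus strand) encodes a related repressor known for its part in arterial fate and in the heart. It measured 21.02, 38.98 and 33.58 FPKM in WT 1 to 3 against 12.14, 28.62 and 24.81 in Npr1+/- 1 to 3. The lowest value of each genotype was the library numbered 1, and Npr1+/- 2 and 3 lay between WT 1 and the other WT libraries, so that the groups overlapped. Its log2 fold change of -0.51 had a standard error of 0.35 (edgeR, adjusted p = 0.999).

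Hey1 (NCBI gene 15213, chr3:8663359-8667256 of GRCm38, minus strand), the third repressor of the family, was much less abundant. It measured 5.90, 4.03 and 3.43 FPKM in WT 1 to 3 against 3.97, 4.64 and 4.02 in Npr1+/- 1 to 3. The groups overlapped fully, WT 1 being the highest, and the log2 fold change of -0.06 (standard error 0.23) turned to 0.17 without WT 1. The summed FPKM of the 3 Hey genes was 58.27, 91.95 and 81.55 in WT 1 to 3 against 30.86, 59.09 and 59.00 in Npr1+/- 1 to 3.

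The promoter of Hey2 is shown because it alone, of the 8 member promoters in the RefSeq table used (those of Hey1 and Heyl were not matched), holds the letters GTGGGAA, the usual core of sites bound by RBPJ. Both strands were searched, from 250 bases before to 50 bases after the transcription start. The window is chr10:30842734-30843033 of GRCm38.p6, read on the minus strand, 5′ to 3′, with the matches in capitals.
Hey2 promoter: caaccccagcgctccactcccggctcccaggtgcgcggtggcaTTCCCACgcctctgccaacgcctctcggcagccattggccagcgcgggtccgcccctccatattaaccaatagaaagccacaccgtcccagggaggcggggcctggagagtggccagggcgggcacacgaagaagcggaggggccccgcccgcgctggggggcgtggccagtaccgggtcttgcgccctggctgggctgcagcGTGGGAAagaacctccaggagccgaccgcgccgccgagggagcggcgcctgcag
The first match begins 207 bases before the start and lies on the other strand, and the last begins 4 bases before the start and runs across it. The matches do not overlap. Of all 32851 promoter windows of this length, 6.38% held the letters on either strand and 0.1005% held them on both strands, as Hey2 does.

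Among the other genes of the pathway, 39 were matched to the table and 6 held the letters, beside 6.38% of all windows. Hes5, a Notch target of the nervous system, had them on both strands. Lfng, a glycosyltransferase that modifies Notch, had them once, as did Psen2, Aph1a, Spen and Hes7. The matches of Hes5 and, as an example of a single match, Lfng are shown with 10 bases on each side for comparison with Hey2.
Hey2, 207 bases before the start: cgcggtggcaTTCCCACgcctctgcca
Hey2, 4 bases before the start: gggctgcagcGTGGGAAagaacctcca
Hes5, 226 bases before the start: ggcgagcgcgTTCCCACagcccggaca
Hes5, 83 bases before the start: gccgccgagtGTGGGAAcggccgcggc
Lfng, 109 bases before the start: cgtatcccacGTGGGAAggagagatct
Hes5 was listed at 0 to 0.31 FPKM, while Hey2 reached 38.98 FPKM, so that genes with the same letters in this window differed widely in level.

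Notch2 (NCBI gene 18129, chr3:98013527-98150361 of GRCm38, plus strand) was the most abundant receptor. It measured 11.33, 20.17 and 19.72 FPKM in WT 1 to 3 against 9.02, 13.79 and 16.90 in Npr1+/- 1 to 3. Like Hey2, it was lowest in the library numbered 1 of each genotype, and WT 1 lay among the Npr1+/- libraries (log2 fold change -0.37, standard error 0.30).

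Notch3 (NCBI gene 18131, chr17:32120820-32166852 of GRCm38, minus strand), the receptor of arterial smooth muscle, had 7.38, 11.46 and 13.73 FPKM in WT 1 to 3 against 12.80, 13.30 and 12.94 in Npr1+/- 1 to 3. The Npr1+/- libraries were nearly alike, at 13.01 ± 0.258 (SD, n = 3), and the spread lay in WT, at 10.9 ± 3.22. The log2 fold change of 0.27 (standard error 0.24) was 0.05 without WT 1. By the root mean square difference of log2 values centered on each gene's mean over the 6 libraries, the tested genes most like Notch3 were Tmem184b (0.08), Col26a1 (0.09) and Mras (0.09), where Notch3 itself varied by 0.32.

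Notch1 (NCBI gene 18128, chr2:26457903-26516663 of GRCm38, minus strand) had 5.72, 4.14 and 4.82 FPKM in WT 1 to 3 against 8.57, 6.22 and 5.20 in Npr1+/- 1 to 3. Only Npr1+/- 3 fell within the WT range (log2 fold change 0.46, standard error 0.23). Notch4 (NCBI gene 18132, chr17:34564268-34588503 of GRCm38, plus strand), a receptor largely restricted to endothelium, had 5.66, 2.38 and 3.72 FPKM in WT 1 to 3 against 7.15, 3.80 and 4.13 in Npr1+/- 1 to 3. It was highest in the libraries numbered 1, and its log2 fold change of 0.38 (standard error 0.38) became -0.01 without Npr1+/- 1. For all 4 receptors, edgeR gave an adjusted p of 0.999.

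Of the ligands, Jag1 (NCBI gene 16449, chr2:137081456-137116644 of GRCm38, minus strand) was the most abundant and the steadiest of the 10 genes, its highest library being 1.40 times the lowest. It measured 7.81, 10.96 and 10.54 FPKM in WT 1 to 3 against 8.32, 9.09 and 10.42 in Npr1+/- 1 to 3 (log2 fold change -0.07, standard error 0.16, and 0.01 without WT 2). The Npr1+/- values all fell within the WT range.

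Jag2 (NCBI gene 16450, chr12:112907819-112929776 of GRCm38, minus strand) had 5.05, 3.57 and 4.31 FPKM in WT 1 to 3 against 7.62, 6.06 and 3.83 in Npr1+/- 1 to 3. Npr1+/- 1 and 2 exceeded every WT library and Npr1+/- 3 lay among them (log2 fold change 0.48, standard error 0.29).

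Dll4 (NCBI gene 54485, chr2:119325784-119335962 of GRCm38, plus strand), the ligand of arterial endothelium, had 5.51, 3.13 and 3.51 FPKM in WT 1 to 3 against 5.37, 3.90 and 2.31 in Npr1+/- 1 to 3. The groups overlapped, and the log2 fold change of -0.05 (standard error 0.37) was 0.23 without WT 1 and also 0.23 without Npr1+/- 3. The genes most like Dll4 by the same measure were Arhgap25, Fam78a and Vnn1 (0.11, 0.11 and 0.12, where Dll4 itself varied by 0.45). Arhgap25, Fam78a and, for Notch3, Col26a1 were low, at most 1.08, 0.63 and 0.86 FPKM in a library. For both Notch3 and Dll4 the genes were picked as the nearest of 13938 over only 6 libraries, so their small differences follow from the choice. No coding gene overlaps any of the 10 genes in the annotation, but noncoding genes overlap the 4 receptors, Jag2 and Dll4 (Gm14207), and the sources used here do not say whether reads were counted by strand.

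The labels number the libraries of each genotype alike, so the genotypes were also compared within each number. The labels do not say that libraries of the same number belong together, which this comparison and the block below assume. Deviations from the genotype means correlated at 0.64 within number 1, but WT 3 went more with Npr1+/- 2 (0.44) than with Npr1+/- 3 (0.24). Notch2, Hey2 and Heyl were lower in the Npr1+/- library of all 3 replicate numbers, as 16.9% of tested genes were, and Notch1 and Notch4 were higher in all 3, as 17.5% were. For Heyl the Npr1+/- library had 49.2%, 54.5% and 64.2% of the CPM of its WT counterpart. For Hey2 it had 60.4%, 75.9% and 70.0%, and for Notch2 83.2%, 70.6% and 81.2%. Heyl had the lowest percentage of the 10 genes in the numbers 1 and 2, and Dll4, at 62.4%, in number 3. For Notch1 it had 156.7%, 155.2% and 102.2%. For Notch4 it had 131.6%, 165.7% and 105.4%, so that the libraries numbered 3 were almost equal for both of these receptors.

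With the number entered in edgeR as a block, these 5 of the 10 genes had an unadjusted p under 0.05, as 12.4% of all tested genes did, against 1 of the 10 (Heyl) and 2.96% without the block. The values for Heyl were a log2 fold change of -0.85 (standard error 0.13, unadjusted p = 0.000228, adjusted p = 0.0963 from edgeR with the block), and those for Hey2 were -0.54 (standard error 0.11, unadjusted p = 0.00166, adjusted p = 0.137 from the same edgeR test). For Notch1, Notch2 and Notch4 the adjusted p of that edgeR test was 0.293 to 0.339, and 0 of the 10 genes were called with or without the block. DESeq2 without the block called 0 of the 10 genes and 0.0832% of all genes. A fit of DESeq2 that held the block was added after seeing the data. It called 1 of the 10, Heyl (adjusted p = 1.99e-05 by DESeq2), and 1.98% of all genes, with 0.672% called lower. Without both libraries numbered 1, a setting added in the same way, Heyl had a log2 fold change of -0.76 and Hey2 one of -0.45 (edgeR, adjusted p = 0.168 and 0.303). In the same setting Notch2 was at -0.40, Notch1 at 0.33 and Notch4 at 0.36.

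**Figure D2:**
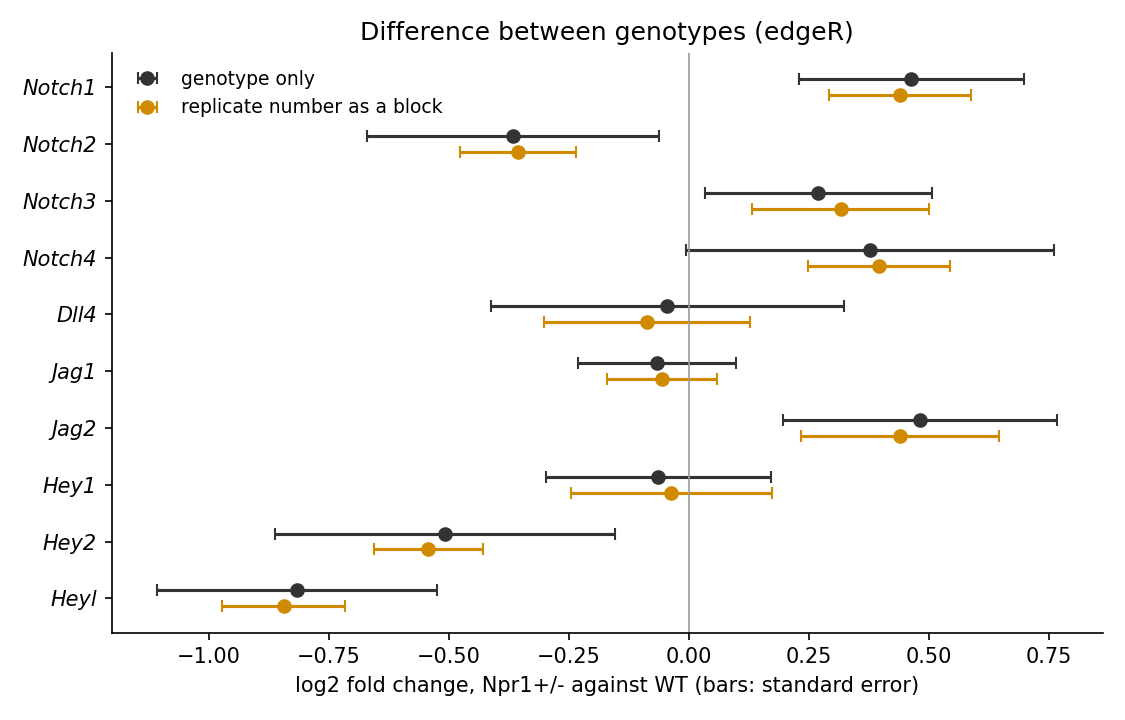
Log2 fold change of the 10 genes in Npr1+/- against WT aortas with its standard error, from edgeR with the genotype only (black) and with the replicate block (orange). Heyl is farthest from 0 in both fits, at -0.82 and -0.85, and its standard error is 0.29 without and 0.13 with the block.

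The make-up of the receptors was compared as the share of each in their summed FPKM. Notch2 and Notch3 together made up most of the receptor RNA in every library, and Notch2 was the largest in all but Npr1+/- 1. The share of Notch2 was 37.7%, 52.9% and 47.0% in WT libraries 1 to 3 against 24.0%, 37.2% and 43.1% in Npr1+/- 1 to 3, with overlap. That of Notch3 was 24.5%, 30.0% and 32.7% in the WT and 34.1%, 35.8% and 33.0% in the Npr1+/- libraries, which did not overlap (exact two-sided permutation test, p = 0.1, adjusted p = 0.5 over the 10 shares computed).

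Jag1 was the largest of the 3 ligands in every library, with 53.99% ± 10.2 of their summed FPKM in WT and 49.9% ± 12.1 in Npr1+/- aortas (SD, n = 3). Of the 7 receptor and ligand shares, 1 did not overlap between the genotypes, but 4 did not without WT 1 and 3 did not without Npr1+/- 3. Among the Hey genes the share of Heyl was 53.8%, 53.2% and 54.6% in WT libraries 1 to 3, a spread of 0.700 percentage points (SD), and 47.8%, 43.7% and 51.1% in Npr1+/- 1 to 3. These groups did not overlap (exact permutation test, p = 0.1, adjusted p = 0.5), Heyl taking a smaller part of the Hey RNA in each Npr1+/- library than in any from WT.

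**Figure D3:**
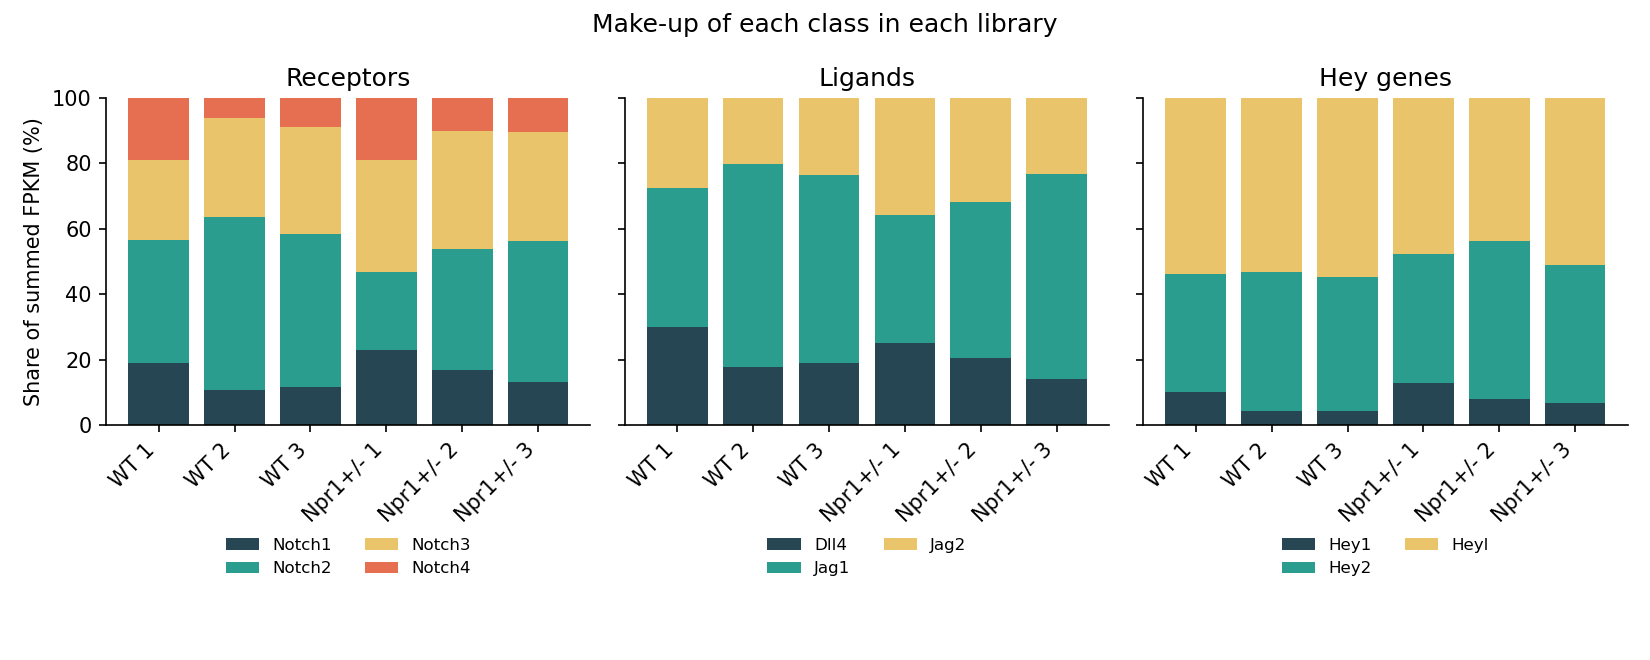
Share of each gene in the summed FPKM of its class (receptors, ligands and Hey genes) in each of the 6 libraries, with every bar adding up to 100%. Heyl holds 53.2% to 54.6% of the Hey bar in WT and 43.7% to 51.1% in Npr1+/- libraries.

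Since the libraries differed in smooth muscle and endothelial RNA, the level of each gene was also set against the mean log2 FPKM of the 8 smooth muscle and the 10 endothelial markers, a measure chosen with the values known. Widths are given as the range over the 6 libraries, the highest minus the lowest log2 value. Set against smooth muscle, the range of Hey2 shrank from 1.67 to 0.59, that of Heyl from 1.72 to 0.94 and that of Notch2 from 1.15 to 0.65. Set against endothelium, the range of Notch4 shrank from 1.55 to 0.68, that of Notch1 from 1.03 to 0.48 and that of Jag2 from 1.07 to 0.70. The other 4 genes did not narrow on either scale. Dll4 went from 1.22 to 1.28 against endothelium and 2.50 against smooth muscle. Notch3 widened from 0.89 to 1.54 against smooth muscle and 1.37 against endothelium, Jag1 from 0.48 to 1.13 and 1.89, and Hey1 from 0.77 to 1.57 and 1.52.

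Relative to smooth muscle markers, Heyl had log2 levels of -3.75, -3.90 and -4.02 for WT 1 to 3 and -4.24, -4.69 and -4.53 for Npr1+/- 1 to 3. Hey2 had -4.33, -4.22 and -4.42 for WT and -4.52, -4.54 and -4.81 in Npr1+/- aortas. Both were lower in Npr1+/- aortas without overlap, by 0.60 for Heyl and 0.30 for Hey2 (exact two-sided permutation test, p = 0.1 each, the smallest possible), which 1.06% of all tested genes were on this scale. None of the 10 genes was higher without overlap, as 1.56% of all tested genes were. The smooth muscle markers themselves overlapped between the genotypes, with 7 of 8 log2 fold changes below 0 and a median of -0.27. Of 5 markers of pericytes, the contractile cells around small vessels, 4 also had a log2 fold change below 0 (median -0.32). By edgeR, 0 had an unadjusted p under 0.05, where 2.96% of all tested genes did. With the block 3 did, where 12.4% of all tested genes did. Summed, they ranged from 258.3 to 758.5 FPKM in WT and from 242.3 to 837.6 in Npr1+/- aortas, with none at 0 in any library. In each genotype the library numbered 1 had the lowest sum, of the smooth muscle markers as well as of these 5. Among the pericyte markers Abcc9, a subunit of potassium channels, measured 41.72, 64.81 and 66.64 FPKM in WT 1 to 3 against 23.72, 44.44 and 39.15 in Npr1+/- 1 to 3. It was chosen after its values were seen and had the largest fall of the 5 (log2 fold change -0.69). Rgs5, the most abundant, was at -0.07, and Higd1b went the other way, at 0.43. The part of these markers in the differences of Heyl and Hey2 was not tested.

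Relative to endothelial markers, Dll4 was lower without overlap, at -1.96, -2.02 and -2.38 for WT 1 to 3 and -2.75, -2.56 and -3.24 in Npr1+/- 1 to 3. Heyl was the only other member of which this was true, and 26.6% of all tested genes were lower without overlap on this scale, where the markers differ between the genotypes. Notch1, Notch4 and Jag2, which were higher in Npr1+/- aortas by FPKM, were lower on this scale by 0.21, 0.25 and 0.24, with overlap. The part of the endothelial markers in the differences of these genes was not tested.

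**Figure D4:**
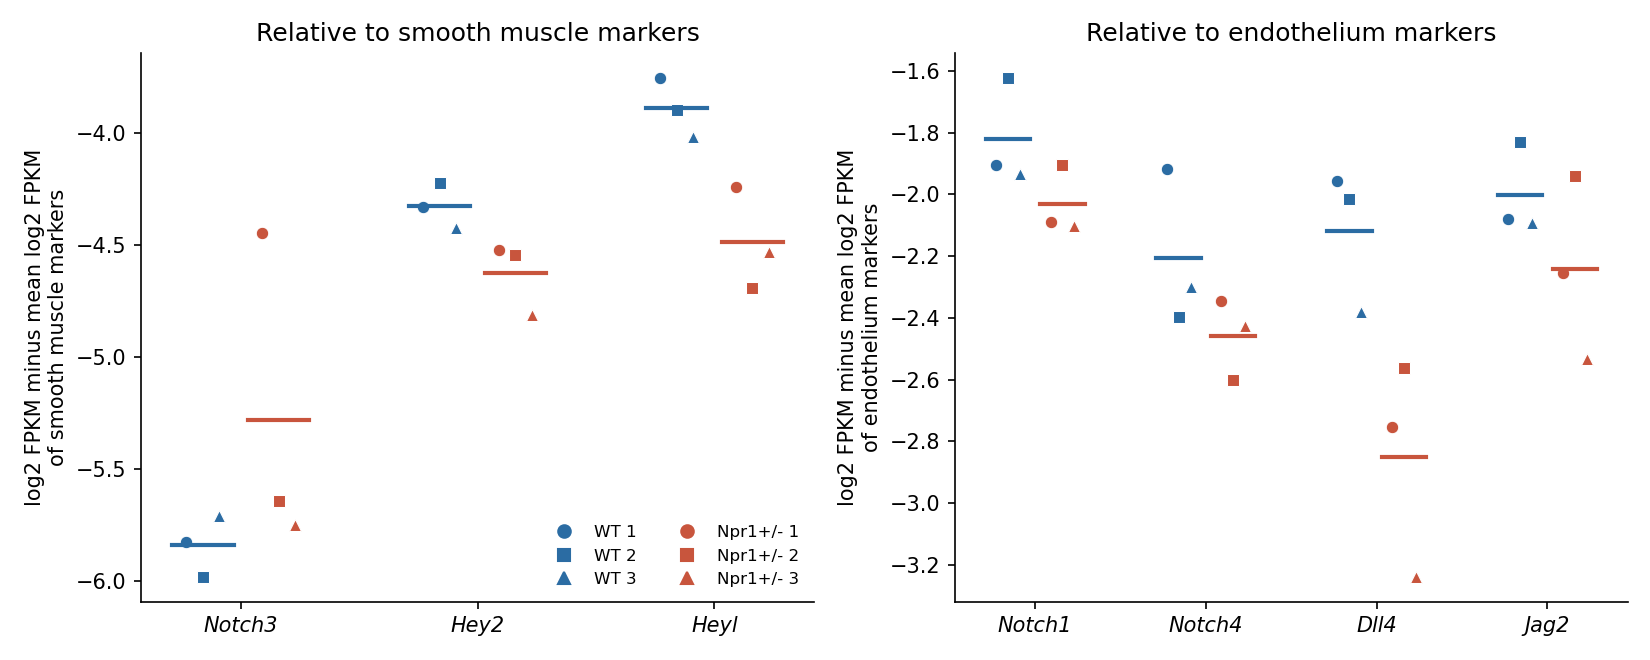
Log2 FPKM of 3 genes relative to the mean of the smooth muscle markers (left) and of 4 genes relative to the mean of the endothelial markers (right), by library, with a line at each genotype's mean (n = 3). The 3 Npr1+/- points of Heyl and Hey2 lie under every WT point on the left, as for 1.06% of all tested genes on that scale. Those of Dll4 do so on the right, as for 26.6% of all tested genes on that scale.

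Among 50 other genes of the pathway, 46 were tested and edgeR's quasi-likelihood test called 0 of them with or without the block, against 0% of all genes. Their log2 fold changes were above 0 for 23 and below 0 for 23, with a median of 0.00, beside -0.05 for the 10 genes and 0.01 for all genes tested. Without the block, 2 had an unadjusted p under 0.05 by edgeR, both higher in Npr1+/- aortas. Of all tested genes, 2.96% had such a p in either direction. Dll1, a further Notch ligand, had 3.70 ± 1.04 FPKM in WT and 6.05 ± 0.809 in Npr1+/- aortas (SD, n = 3, log2 fold change 0.69, standard error 0.24). Nrarp, a target gene that dampens Notch signaling, had 4.87 ± 1.13 and 8.13 ± 1.17 FPKM (log2 fold change 0.75, standard error 0.23). Both were higher in every Npr1+/- than in any WT library, by FPKM and by CPM, as 3.9% of tested genes were by CPM.

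With the block, 9 of the 46 had an unadjusted p under 0.05, 5 higher and 4 lower, where 7.36% and 5.09% of all tested genes were. The higher ones were Dll1, Nrarp, the glycosyltransferases Mfng and Lfng, which tune how receptors respond to ligands, and the ubiquitin ligase Dtx2. Mfng had 8.71, 4.64 and 5.77 FPKM in WT 1 to 3 against 21.64, 9.21 and 8.02 in Npr1+/- 1 to 3, with the block log2 fold change at 0.94 (standard error 0.20, adjusted p = 0.142 from edgeR with the block).

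The lower ones were Rbpj, the DNA-binding partner of Notch, its coactivator Maml2, the glycosyltransferase Poglut1 and Pdgfrb, a growth factor receptor of smooth muscle and pericytes. Rbpj had 17.31, 23.16 and 23.74 FPKM in WT 1 to 3 against 13.52, 17.47 and 18.40 in Npr1+/- 1 to 3, which overlapped through WT 1 (block log2 fold change -0.35, standard error 0.11, adjusted p = 0.263 from edgeR with the block). Of the 13 genes of the nuclear complex, 10 had a log2 fold change below 0, with a median of -0.14.

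The enzymes that cut Notch differed little. Their median log2 fold change was 0.02. None of the 10 had an unadjusted p under 0.05 from edgeR without or with the block, where 2.96% and 12.4% of all tested genes did. So few genes cannot be told apart from these shares. Psen2, 1 of the 10, was higher in Npr1+/- aortas without overlap by CPM, as 3.9% of tested genes were, though not by FPKM. The most abundant were Psenen, at 99.65 to 129.6 FPKM, Furin, at 30.07 to 34.24, and Aph1a, at 24.57 to 33.20. Hes1, the other main target of Notch in vessels, had 23.92, 23.90 and 19.72 FPKM in WT 1 to 3 against 15.79, 23.94 and 30.30 in Npr1+/- 1 to 3 (log2 fold change 0.05), the Npr1+/- libraries holding both its lowest and its highest value.

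**Figure D5:**
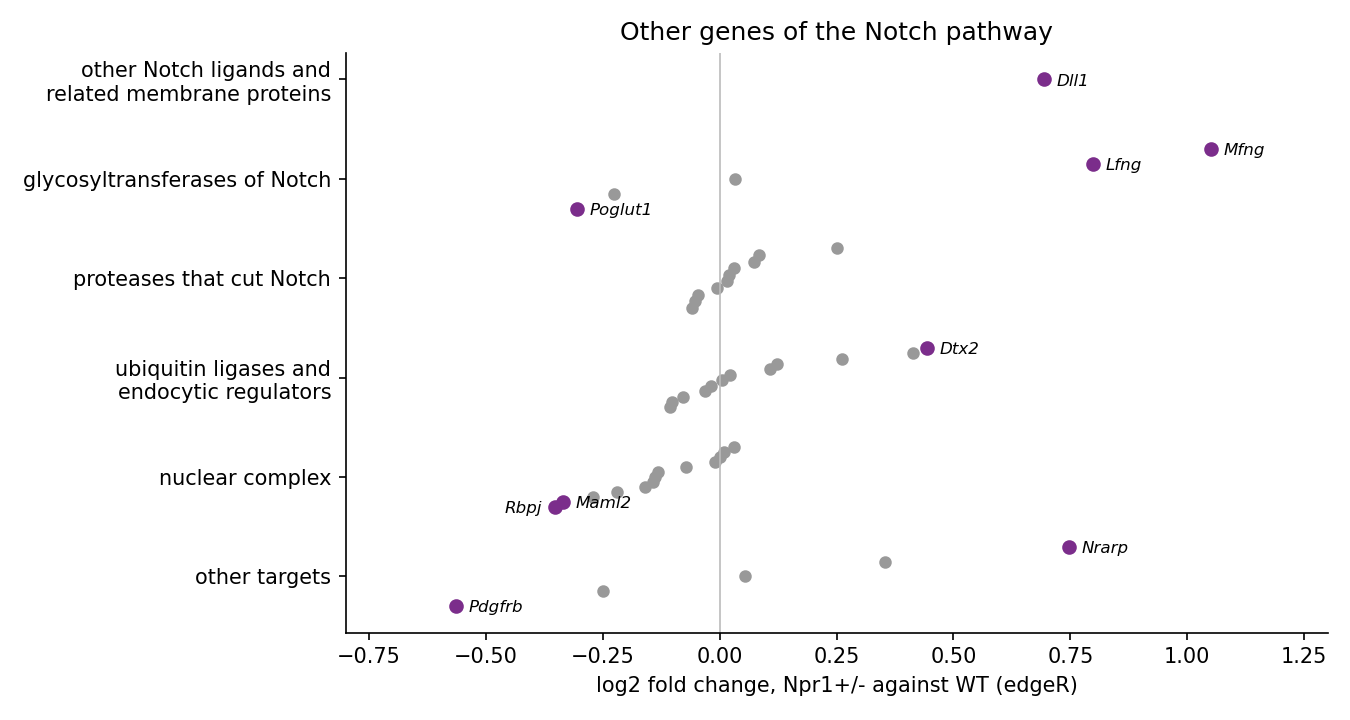
Log2 fold change in Npr1+/- against WT aortas (edgeR, genotype only) of the 46 tested pathway genes by group, with named purple points for those with an unadjusted p under 0.05 without or with the replicate block. Dll1, Nrarp, Lfng and Mfng lie between 0.69 and 1.05, and the genes of the nuclear complex lie mostly below 0.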

How the data were processed

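The authors filtered reads with SOAPnuke, aligned them to a coding gene set with Bowtie2 and estimated expression with RSEM. They deposited estimated counts, not normalized, and FPKM of 18191 genes by NCBI identifier. The submitters' processing notes name mm10 and DESeq2 1.4.5. RefSeq symbols of GRCm38.p6 were matched to 18070 identifiers, and gene coordinates are those of GENCODE M21 on GRCm38. The authors' means were not used.

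Estimated counts were rounded and tested with edgeR 4.0.16 (R 4.3.3), with TMM normalization, a minimum count of 10, its quasi-likelihood test and Benjamini-Hochberg adjustment over 13938 genes. A floor of 3 counts was 0.180 to 0.222 CPM, for counting error only. Log2 FPKM used a pseudocount of 0.1. The test was checked on simulated counts. DESeq2 1.42.0, its size factors, no filter, limma 3.58.1 on FPKM, the replicate block and leaving out libraries were tried.

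The replicate numbers come from the labels. Deviations from the genotype means correlated at 0.64, 0.39 and 0.24 within the numbers 1, 2 and 3, and from -0.58 to 0.44 between numbers. The genes, lists and tests were chosen with earlier results of these data known. Named are the 10 genes, Npr1, markers, the 3 tested genes nearest to Notch3 and to Dll4, and pathway genes with an unadjusted p under 0.05 or among the 3 most abundant of a group. Hes5, Hes7 and Spen were named for their promoters, and the measure relative to markers was chosen after the data were seen.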

Additional observations from a re-analysis of the deposited data

How the results depend on the processing

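The 10 log2 fold changes were recomputed under 15 alternatives. Direction and call held for 143 of the 150 values, 6 turned sign and 1 (Heyl by DESeq2 with the replicate block, -0.85) passed the threshold. The sign turned without 1 library for Notch4 (-0.011 without Npr1+/- 1, 0.73 without WT 1), Dll4 (0.23 without WT 1 and 0.23 without Npr1+/- 3, -0.40 without Npr1+/- 1), Jag1 (0.0065 without WT 2, -0.21 without WT 1) and Hey1 (0.17 without WT 1, -0.22 without WT 3), and for Hey1 without both libraries numbered 1 (0.20). The cause was not tested. Over all genes, DESeq2 called 15 in place of 0, DESeq2 with the replicate block 268, and edgeR without both libraries numbered 1 called 1. Among the 10 genes and the other pathway genes, DESeq2 with the block called 1 and 2 (Mfng and Pdgfrb), and the other settings called 0. With the block in edgeR, 0 genes were called. Leaving out single libraries, the receptor and ligand shares without overlap numbered from 1 to 4 (4 without WT 1 and 3 without Npr1+/- 3). Groups come apart more easily with fewer libraries, so these counts are not comparable with that from all libraries. The order of levels had 0 of 9 pairs past the threshold in every setting, and with 5 libraries no pair could pass. The fewest counts of the 10 genes in a library were 123, for Dll4.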
